A study of Homo sapiens with 4 samples.

Results

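The genes described here carry the integrated stress response and the unfolded protein response. They were taken by gene symbol from the deposited expression table, and all 38 listed symbols were found among its 18134 genes. This rule uses no measured value, but the list was chosen with earlier results of these data known. They fall into an ATF4 branch of 19 genes, which holds ATF4, its partners and the targets that make and import amino acids, and an ER branch of 19 genes, which holds the sensors of the endoplasmic reticulum (ER), XBP1 and the folding and degradation machinery of this compartment. All 38 had enough reads to be among the 14048 genes tested. RNA was sequenced from PC9 cells, an established lung adenocarcinoma (LUAD) line, after lentiviral delivery of a negative control hairpin (shNC) or a hairpin against TPX2 (shTPX2), and antibiotic selection of stable lines. TPX2 is a spindle assembly factor, and the comparison asks which transcripts differ once it is depleted. Each group has 2 libraries, numbered 1 and 2, of poly(A)-selected RNA, and the labels place all 4 in 1 batch. The labels do not say whether the libraries of a group came from separate cultures, so the p-values below measure only the spread between these libraries.

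In the integrated stress response, kinases that sense unfolded protein, missing amino acids, viral RNA or heme shortage phosphorylate the initiation factor eIF2, which slows translation in general while translation of ATF4 mRNA goes up. ATF4 then binds with C/EBP partners to genes for amino acid synthesis, amino acid uptake and tRNA charging. In the unfolded protein response, PERK (EIF2AK3) feeds into that same pathway, IRE1 (ERN1) splices XBP1 mRNA, and ATF6 is cut in the Golgi to release a transcription factor. XBP1 and ATF6 act on chaperones, disulfide isomerases and the machinery that clears misfolded proteins from the ER. Much of this control acts on translation, splicing and protein cleavage, which the abundance of an mRNA does not show.

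The libraries held between 20906441 and 21972583 expected counts. Values per library are given as CPM, counts scaled to the size of the library, after TMM normalisation, the scale on which the fold changes were fitted. TPX2 itself measured 89.0 CPM in shNC 1, 175 CPM in shNC 2, 76.5 CPM in shTPX2 1 and 74.5 CPM in shTPX2 2. The shTPX2 libraries had the 2 lowest values. The log2 fold change was −0.81 (standard error, SE, 0.32), and edgeR's quasi-likelihood test gave a Benjamini-Hochberg adjusted p of 0.618. The size of this difference rested on the shNC libraries and was −0.25 without shNC 2 and −1.21 without shNC 1. The 9 lung epithelial markers together made up 20159 to 27732 TPM per library (a level scaled to transcript length and library size). Keratins dominated this sum, whereas NKX2-1 stayed at 1.55 TPM or less and NAPSA at 1.67 TPM or less. The 9 markers of immune, stromal and endothelial cells summed to 141 to 248 TPM, and most of that was CD68.

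Promoter sequences of both branches were searched for the elements that their transcription factors bind. RefSeq windows in GRCh38.p14, from 250 bases before the start to 50 bases after it, were held for 17 ATF4 branch genes and all 19 ER branch genes. PSPH and SHMT2 had no entry. The windows were searched on both strands for 4 motifs. The C/EBP-ATF element TGATGNAA, to which ATF4 binds with a C/EBP partner, was present in 5 of the 17 ATF4 branch windows (29.41%), compared to 3.62% of all 35116 windows. These were ATF3, CHAC1, ASNS, SLC3A2 and SLC7A1. The ER stress element, CCAAT and CCACG with 9 bases between them, stood in 6 of the 19 ER branch windows (31.58%) and in 0.08% of all windows. XBP1, HSPA5, HSP90B1, CALR, CANX and CRELD2 carried it, HSP90B1 with 2 copies. ER stress element II, ATTGG and CCACG with 1 base between them, was added after the windows had been read and was found in HYOU1, SDF2L1 and HERPUD1, and in 0.05% of all windows. The unfolded protein response element TGACGTGG was found in HYOU1 alone among the members and in 0.73% of all windows. It shares the letters CGTGG, the reverse complement of CCACG, with the ER stress elements, and in HYOU1 its match overlaps one of the matches to ER stress element II. None of the last 3 motifs was found in an ATF4 branch window, and the C/EBP-ATF element was found in a single ER branch window, that of HERPUD1. Both branches were drawn up to hold known targets of these factors. The higher shares are therefore not independent of the choice of genes and describe the lists, not the RNA measured here.

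The 250 bases before the start follow for 6 genes, read 5′ to 3′ on the strand of the gene, with the motif matches in capitals (in the ER stress element only its outer parts). ASNS and CHAC1 are shown as the ATF4 branch genes with a C/EBP-ATF element and the widest differences between libraries. XBP1 is shown as the member with the clearest difference between groups, HSPA5 and HSP90B1 as the main ER chaperones, and HERPUD1 because it holds motifs of both kinds. ASNS lies at chr7:97872409-97872658 on the minus strand, CHAC1 at chr15:40953221-40953470 on the plus strand, XBP1 at chr22:28800570-28800819 on the minus strand, HSPA5 at chr9:125241344-125241593 on the minus strand, HSP90B1 at chr12:103930160-103930409 on the plus strand and HERPUD1 at chr16:56931892-56932141 on the plus strand. A match is a description of the letters and not evidence of binding in these cells.
ASNS: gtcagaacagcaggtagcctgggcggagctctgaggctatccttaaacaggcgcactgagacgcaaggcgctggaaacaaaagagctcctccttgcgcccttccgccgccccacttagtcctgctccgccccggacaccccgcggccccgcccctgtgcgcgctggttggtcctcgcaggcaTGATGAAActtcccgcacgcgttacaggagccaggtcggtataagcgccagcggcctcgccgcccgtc
CHAC1: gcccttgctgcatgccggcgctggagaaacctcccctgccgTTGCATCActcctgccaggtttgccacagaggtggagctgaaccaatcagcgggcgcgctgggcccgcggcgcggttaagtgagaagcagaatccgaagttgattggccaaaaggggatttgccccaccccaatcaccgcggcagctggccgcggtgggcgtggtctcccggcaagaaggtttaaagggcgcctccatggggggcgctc
XBP1: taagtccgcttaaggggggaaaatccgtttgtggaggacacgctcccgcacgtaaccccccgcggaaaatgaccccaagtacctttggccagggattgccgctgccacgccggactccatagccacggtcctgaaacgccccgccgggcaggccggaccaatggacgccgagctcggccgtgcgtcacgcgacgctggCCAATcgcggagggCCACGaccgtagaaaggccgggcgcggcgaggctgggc
HSPA5: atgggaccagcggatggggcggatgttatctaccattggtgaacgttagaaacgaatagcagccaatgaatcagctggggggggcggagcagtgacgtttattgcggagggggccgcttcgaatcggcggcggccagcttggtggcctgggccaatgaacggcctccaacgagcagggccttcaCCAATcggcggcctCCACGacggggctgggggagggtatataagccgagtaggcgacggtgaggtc
HSP90B1: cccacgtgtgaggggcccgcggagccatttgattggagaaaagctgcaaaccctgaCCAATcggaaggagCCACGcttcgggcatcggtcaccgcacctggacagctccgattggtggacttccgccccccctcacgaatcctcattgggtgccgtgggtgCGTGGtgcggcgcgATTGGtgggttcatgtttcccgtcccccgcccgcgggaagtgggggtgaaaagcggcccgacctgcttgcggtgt
HERPUD1: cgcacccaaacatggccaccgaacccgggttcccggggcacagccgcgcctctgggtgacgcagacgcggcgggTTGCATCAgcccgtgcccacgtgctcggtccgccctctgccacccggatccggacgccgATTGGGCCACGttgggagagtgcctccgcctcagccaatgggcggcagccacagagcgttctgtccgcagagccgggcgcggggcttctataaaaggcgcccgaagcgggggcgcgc
The first base of the match lay 68 bases before the start in ASNS and 209 bases before it in CHAC1, where the element is on the opposite strand. The ER stress element began 52 bases before the start in XBP1 and 66 bases before it in HSPA5. In HSP90B1 the 2 copies began 194 and 89 bases before the start and pointed in opposite directions.

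Between the groups, the members differed little compared to the spread within each group. At the criteria of the study, a limma voom p of up to 0.1 without adjustment and an absolute log fold change of 0.3 or more, taken here as log2 because the methods name no base, 2 of the 38 members were higher in shTPX2 and 0 were lower, while 14.2% of all tested genes met these criteria in either direction (6.24% higher and 7.99% lower). The 2 were XBP1 in the ER branch and PPP1R15A in the ATF4 branch. In edgeR's quasi-likelihood test, 0 members and 0.0% of all genes had a Benjamini-Hochberg adjusted p under 0.05. At an unadjusted p under 0.05 the same test gave 1 member, XBP1, against 8.03% of all genes. DESeq2 gave 0 members at an adjusted p under 0.05, against 0.79% of all genes. The 95% confidence interval of the fold change covered 0 for 37 of the 38 members and for 12920 of the 14048 genes tested. This restates the unadjusted p, because both come from the same edgeR test.

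**Figure D1:**
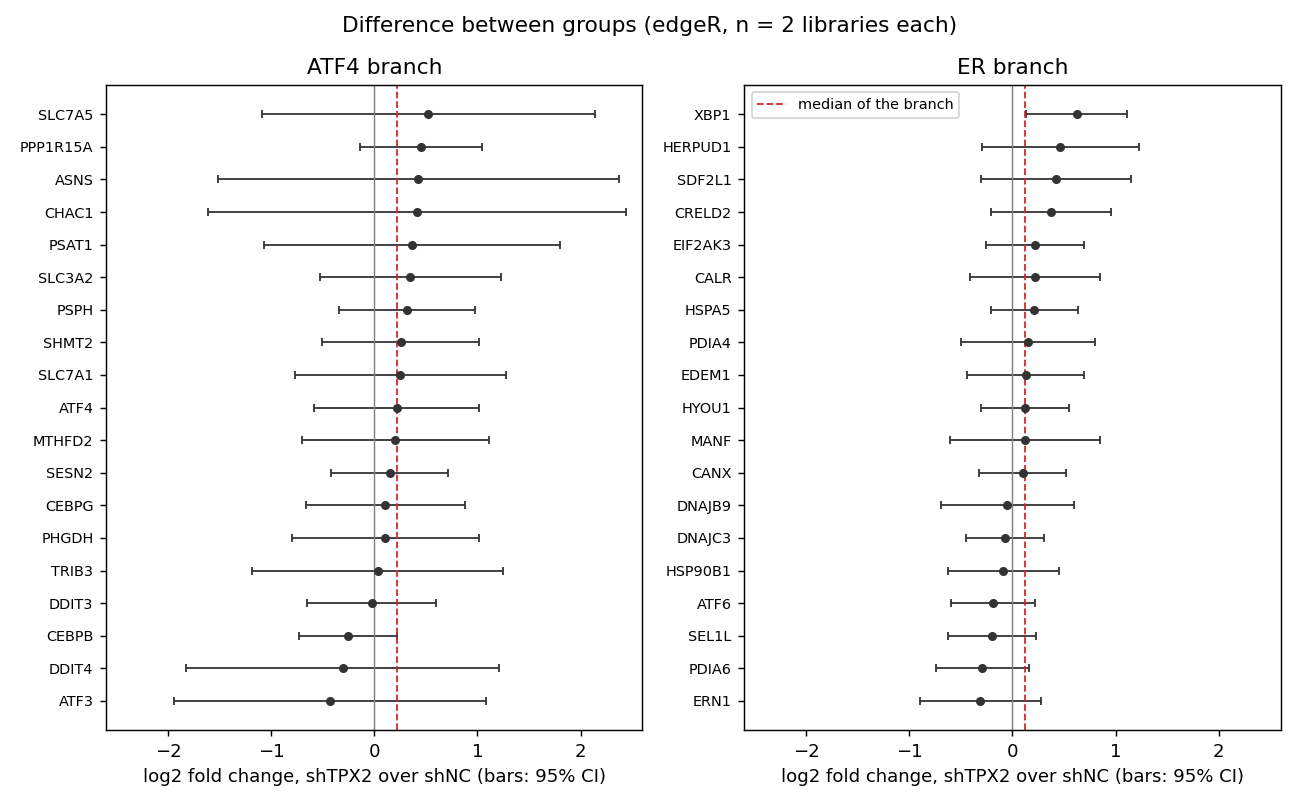
Log2 fold change of shTPX2 over shNC for each member, with the ATF4 branch on the left and the ER branch on the right. Points are edgeR estimates from 2 libraries per group, bars are 95% confidence intervals, the grey line marks 0 and the dashed red line the median of the branch. Only the interval of XBP1 lies wholly above 0, and the intervals of ASNS, CHAC1, SLC7A5, DDIT4 and ATF3 are the widest.

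In the ATF4 branch, 15 genes (78.9%) had a higher and 4 a lower group mean in shTPX2, against 48.9% higher over all tested genes. The median log2 fold change was 0.22, compared to −0.01 over all tested genes. The fold changes ran from −0.43 to 0.52. This median depended on single libraries. It was 0.73 without shNC 1 and 0.53 without shTPX2 2, but −0.175 without shNC 2 and −0.29 without shTPX2 1. Of the 19 genes, 9 were called higher without shNC 1 and 8 without shTPX2 2, while 0 were called higher and 2 lower without shNC 2 or without shTPX2 1. The counts over all tested genes moved between these fits as well, with 1487 called higher and 1858 lower without shNC 1, 507 and 593 without shTPX2 2, 850 and 1014 without shNC 2, and 673 and 956 without shTPX2 1.

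ATF4, the transcription factor that gives the branch its name, measured 772 CPM in shNC 1, 383 CPM in shNC 2, 706 CPM in shTPX2 1 and 637 CPM in shTPX2 2. shNC 2 stood apart at the low end, and both shTPX2 libraries lay within the range of the shNC libraries. The log2 fold change was 0.22 (SE 0.33, 95% CI −0.58 to 1.02, adjusted p = 0.896 by edgeR's quasi-likelihood test, Benjamini-Hochberg adjusted). Without shNC 2 it was −0.21, and without shNC 1 it was 0.81. ATF3, a stress-induced factor downstream of ATF4, was the member with the fewest transcripts and measured 2.20, 2.43, 2.71 and 0.722 CPM in shNC 1, shNC 2, shTPX2 1 and shTPX2 2. Only shTPX2 2 was low, and the fold change of −0.43 (SE 0.63, adjusted p = 0.889 by the same edgeR test) became 0.22 without that library. DDIT3, which encodes the pro-apoptotic factor CHOP, measured 9.31, 7.79, 8.17 and 8.62 CPM in the same order. Its libraries lay close together and the groups overlapped, with a log2 fold change of −0.03 (SE 0.26, 95% CI −0.66 to 0.60).

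The C/EBP partners differed from each other. CEBPB measured 595 and 755 CPM in shNC and 577 and 553 CPM in shTPX2, so the shTPX2 libraries had the 2 lowest values. Its log2 fold change of −0.26 (SE 0.20, adjusted p = 0.780 by edgeR's quasi-likelihood test, Benjamini-Hochberg adjusted) was not past the threshold. CEBPG measured 44.8 and 27.2 CPM in shNC and 48.0 and 29.6 CPM in shTPX2, so the libraries numbered 1 lay close to each other and so did those numbered 2.

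The branch also has its own brakes. PPP1R15A, which encodes GADD34, the phosphatase subunit that removes the phosphate from eIF2, measured 74.6 CPM in shNC 1 and 47.8 CPM in shNC 2, against 90.4 CPM in shTPX2 1 and 76.9 CPM in shTPX2 2. The groups did not overlap in CPM, with shNC 1 only just below shTPX2 2, but they overlapped in TPM. The log2 fold change was 0.45 (SE 0.25), with an unadjusted p of 0.0955 in limma and an adjusted p of 0.702 by edgeR's quasi-likelihood test, Benjamini-Hochberg adjusted. The call was lost without shNC 2 (0.155) or without shTPX2 1 (0.33), and also with library size only, no filter on low counts, quantile normalisation, DESeq2 or edgeR at the thresholds of the study. TRIB3, a pseudokinase that restrains ATF4, spanned 343 CPM in shNC 1 to 102 CPM in shNC 2, while both shTPX2 libraries lay between them at 234 and 222 CPM.

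Among the stress targets, the within-group range was wider still. CHAC1, an enzyme that degrades glutathione, measured 21.3 CPM in shNC 1 and 3.56 CPM in shNC 2, and 25.3 CPM in shTPX2 1 and 7.85 CPM in shTPX2 2. Library 1 minus library 2 was 2.55 in shNC and 1.67 in shTPX2 in log2 CPM (with the prior count of 2 that edgeR adds), compared to a log2 fold change between the groups of 0.41 (SE 0.84). DDIT4, which encodes the mTORC1 inhibitor REDD1, measured 156, 52.6, 127 and 41.9 CPM in shNC 1, shNC 2, shTPX2 1 and shTPX2 2. The groups overlapped almost fully, and the log2 fold change was −0.31 (SE 0.63, 95% CI −1.82 to 1.21). It was 0.68 without shNC 1 and −1.31 without shTPX2 1. SESN2, which encodes a leucine sensor acting on mTORC1, kept a narrower range of 22.2 to 32.5 CPM.

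All 9 genes of amino acid synthesis and uptake had a higher group mean in shTPX2, against 48.9% of all tested genes. Log2 fold changes of the 9 were 0.11 to 0.52, yet 0 of the 9 met the criteria of the study and the groups overlapped in each of them. ASNS, asparagine synthetase, measured 144 CPM in shNC 1, 38.9 CPM in shNC 2, 203 CPM in shTPX2 1 and 42.1 CPM in shTPX2 2. In both groups the library numbered 1 was high and the library numbered 2 low, and shNC 1 exceeded shTPX2 2 by far more than the group means differed. The log2 fold change was 0.42 (SE 0.81, 95% CI −1.52 to 2.37, adjusted p = 0.919 by edgeR's quasi-likelihood test, Benjamini-Hochberg adjusted). It was 1.65 without shNC 1 and −1.11 without shTPX2 1.

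SLC7A5, the light chain of the large neutral amino acid exchanger LAT1, had the largest fold change of the branch, 0.52 (SE 0.67, 95% CI −1.09 to 2.14). It measured 479 and 134 CPM in shNC and 653 and 229 CPM in shTPX2. Again the libraries numbered 1 were high in both groups, and the value ran from −0.42 without shTPX2 1 to 1.71 without shNC 1. SLC3A2, the heavy chain with which SLC7A5 pairs, measured 256, 129, 297 and 192 CPM in shNC 1, shNC 2, shTPX2 1 and shTPX2 2. SLC7A1, an importer of cationic amino acids, measured 212, 105, 252 and 126 CPM in the same order. Both transporters had the same order of libraries as SLC7A5.

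In the serine pathway the libraries numbered 1 were again the higher ones in both groups. PSAT1, the aminotransferase of the pathway, measured 244 and 84.4 CPM in shNC and 309 and 115 CPM in shTPX2. PHGDH, which commits 3-phosphoglycerate to serine, measured 437 and 280 CPM in shNC and 518 and 253 CPM in shTPX2. PSPH, which releases serine from phosphoserine, lay between 67.6 and 123 CPM. The mitochondrial one-carbon enzymes SHMT2 (388 CPM) and MTHFD2 (201 CPM) also had their highest value in shTPX2 1, as did all 9 genes of synthesis and uptake. The lowest value was in shNC 2 for 7 of the 9 and in shTPX2 2 for the other 2, PHGDH and MTHFD2. Over all tested genes, shTPX2 1 was highest in 21.8%, shNC 2 lowest in 30.1% and shTPX2 2 lowest in 27.1%. shNC 2 was also the library most often highest over all tested genes (31.0%).

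**Figure D2:**
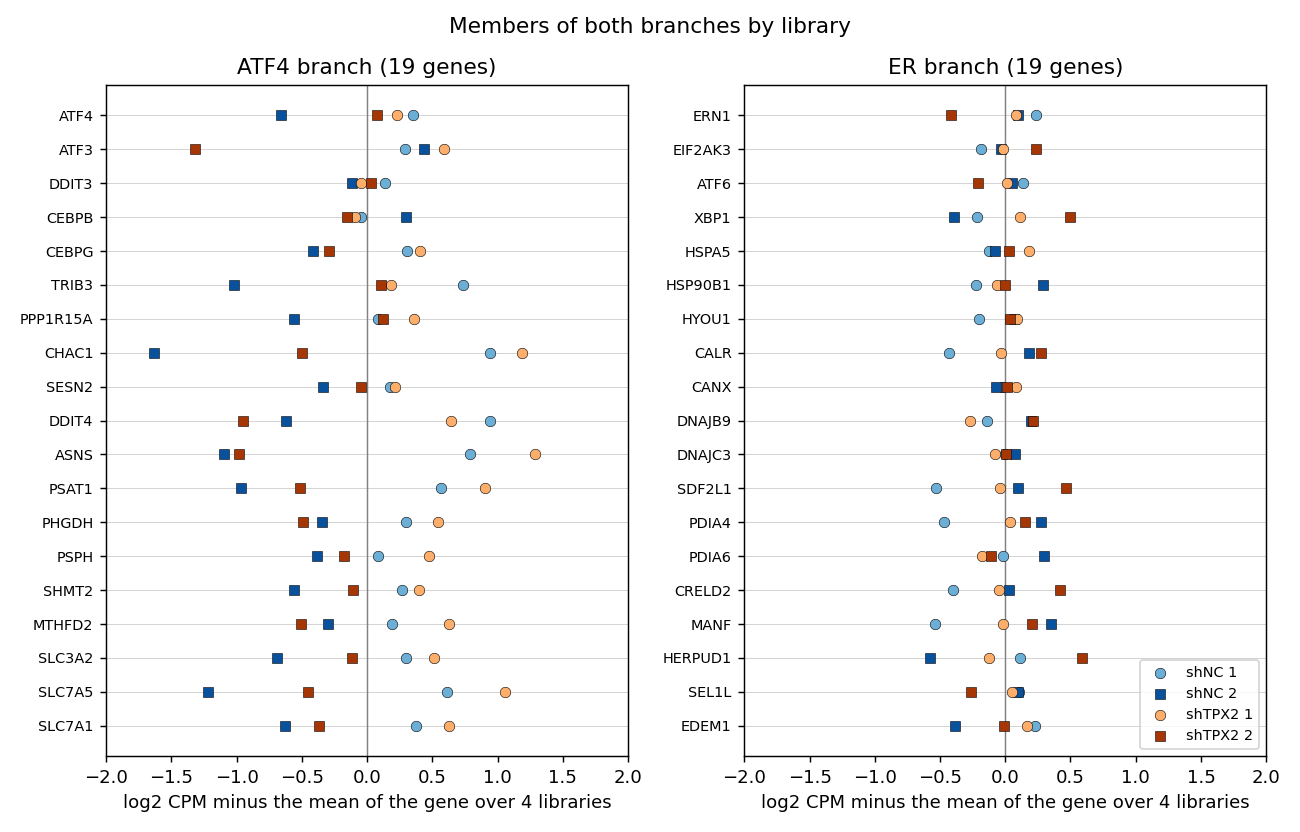
Level of each member in each library, as log2 CPM minus the mean of that gene over the 4 libraries, for the ATF4 branch (left) and the ER branch (right). Circles are libraries numbered 1 and squares libraries numbered 2, blue for shNC and orange to brown for shTPX2. In the ATF4 branch the circles lie to the right of the squares for most genes, while the ER branch stays closer to 0. In the ATF4 branch shTPX2 1 was highest in 14 of 19 genes (21.8% of all tested genes) and shNC 2 lowest in 14 of 19 (30.1%).

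The difference between the libraries of a group was therefore described on its own, a comparison chosen after the values had been seen. It has no test, and the labels tie no library of one group to a library of the other. In the ATF4 branch, 16 of 19 genes (84.2%) were higher in library 1 than in library 2 in both groups, compared to 29.2% of all tested genes, and 0 were higher in library 2 in both, compared to 27.7%. The median difference of library 1 minus library 2 in log2 CPM, with a prior count of 2 as above, was 0.825 in shNC and 0.69 in shTPX2, while over all tested genes it was −0.004 and 0.015. For the 9 genes of synthesis and uptake these medians were 0.99 and 1.03. CHAC1, DDIT4, ASNS, PSAT1 and SLC7A5 were at least 2-fold higher in library 1 in both groups, 5 of 19 genes (26.3%) against 0.313% of all tested genes. The 3 exceptions were ATF3, DDIT3 and CEBPB. The larger of the 2 within-group differences exceeded the fold change between the groups in all 19 genes, as it did in 10200 of the 14048 genes tested. TPX2 mRNA differed by −0.98 on the same scale in shNC, where library 2 was the higher one, and by 0.04 in shTPX2, and its part in these differences was not tested.

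**Figure D3:**
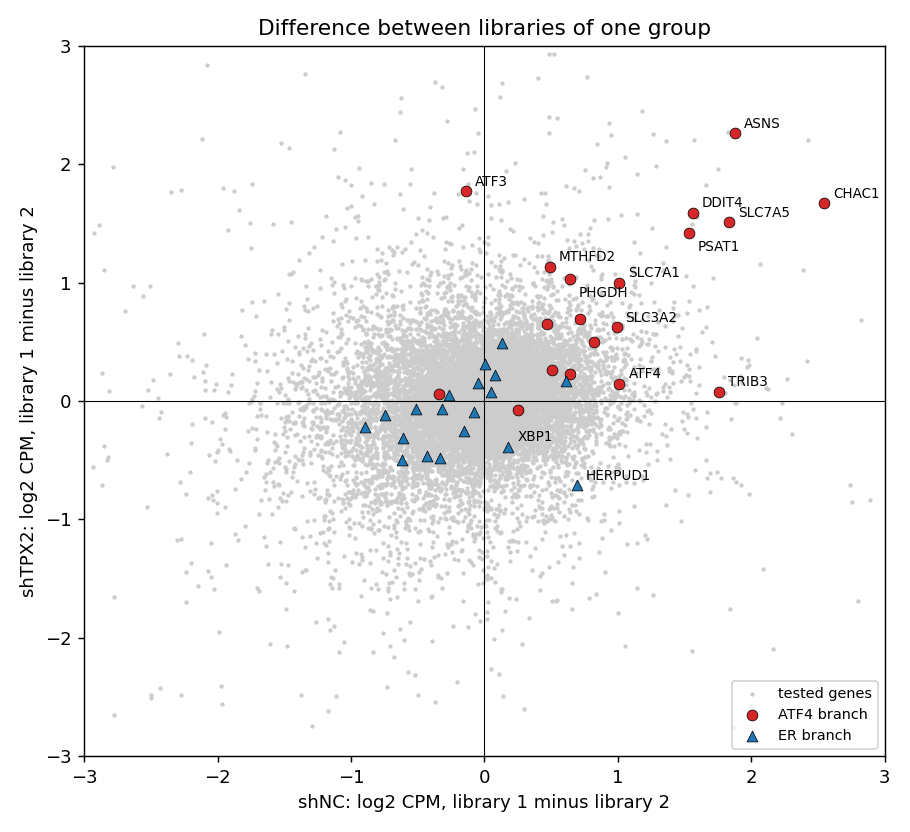
Difference between library 1 and library 2, in log2(CPM + 0.1), within shNC (horizontal axis) and within shTPX2 (vertical axis) for each gene. Grey points are tested genes, of which 60 lie outside the axes, red circles are ATF4 branch members and blue triangles ER branch members. CHAC1, ASNS, SLC7A5, DDIT4 and PSAT1 sit in the upper right, more than 1 log2 unit from 0 on both axes, while 10 of the 19 ER branch members sit below 0 on both.

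**Figure D4:**
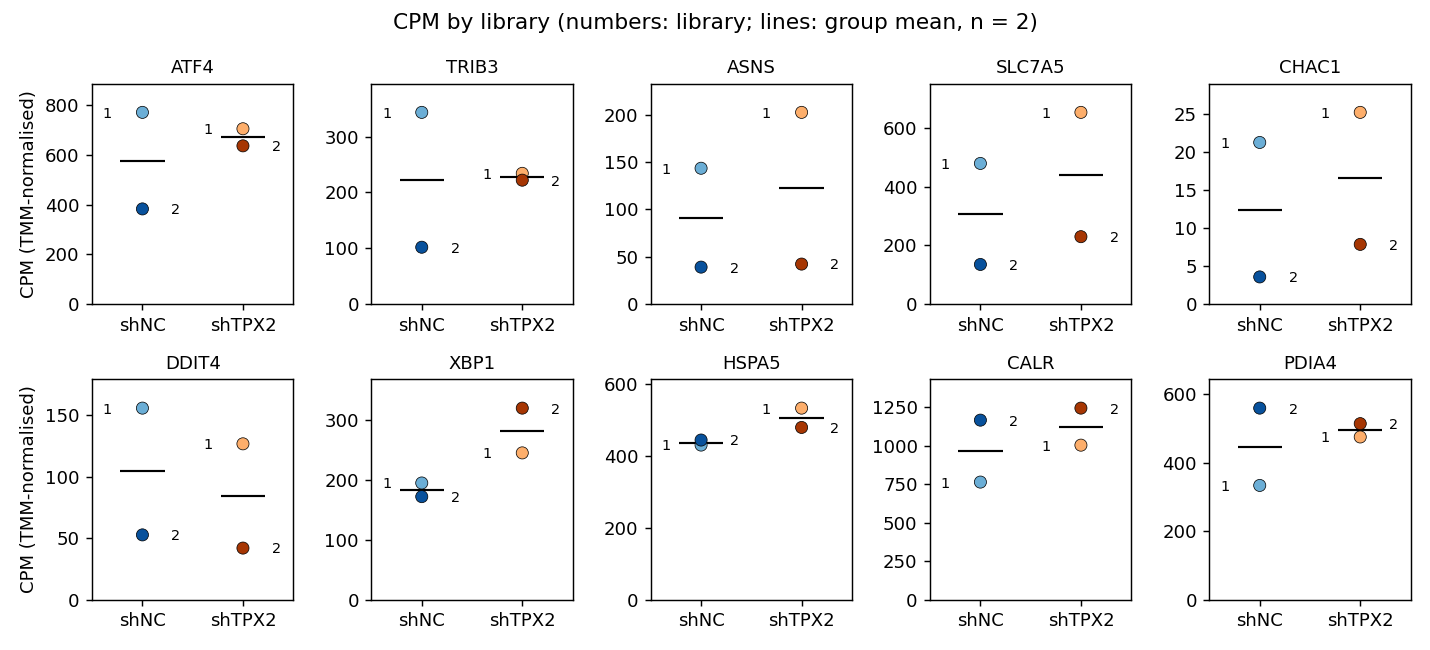
TMM-normalised CPM of 10 members in the shNC and shTPX2 libraries. Each point is 1 library with its number beside it, the line is the group mean (n = 2), and every vertical axis starts at 0. In ASNS, SLC7A5, CHAC1 and DDIT4 the library numbered 1 lies above the library numbered 2 in both groups, whereas in XBP1 both shTPX2 libraries lie above both shNC libraries.

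The ER branch varied less. Its median SE of the log2 fold change was 0.22, compared to 0.38 in the ATF4 branch and 0.24 over all tested genes. In shTPX2, 12 of its genes (63.2%) had a higher and 7 a lower group mean, against 48.9% higher over all tested genes. The median log2 fold change of the branch was 0.13, with a range of −0.31 to 0.62. Without shNC 1 the median was −0.05, and without shTPX2 2 it was 0.07. The groups did not overlap for 8 genes, 4 of them higher (XBP1, EIF2AK3, HSPA5 and CANX) and 4 lower (ERN1, ATF6, PDIA6 and SEL1L), and for 2 ATF4 branch genes, PPP1R15A and CEBPB. This is 10 of 38 members, against 39.6% of all tested genes (19.4% higher and 20.2% lower). On the TPM scale 6 members did not overlap, and of the higher ones only XBP1 was left. The share over all tested genes was not counted on that scale, which as a whole lay lower in shTPX2. Over all tested genes the median difference in log2(TPM + 1) was −0.099, against a median log2 fold change of −0.008 in the main fit.

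XBP1, the transcription factor made after IRE1 splicing, measured 195 CPM in shNC 1, 172 CPM in shNC 2, 245 CPM in shTPX2 1 and 319.5 CPM in shTPX2 2. Both shTPX2 libraries lay above both shNC libraries, and shTPX2 2 was the highest. The log2 fold change was 0.62 (SE 0.20, 95% CI 0.14 to 1.11), with an unadjusted p of 0.0191 in limma and an adjusted p of 0.579 by edgeR's quasi-likelihood test, Benjamini-Hochberg adjusted. XBP1 met the criteria under each of the other normalisations, filters and tests at the unadjusted threshold, but no longer without shTPX2 2, where the fold change was 0.42. The values count all XBP1 transcripts of the gene, and spliced and unspliced forms were not analysed here.

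The 3 sensors had smaller fold changes than XBP1 and no shared direction. EIF2AK3, the kinase PERK, measured 20.97 and 23.4 CPM in shNC and 23.6 and 28.1 CPM in shTPX2. ERN1, the nuclease IRE1, measured 21.2 and 19.3 CPM in shNC and 19.1 and 13.5 CPM in shTPX2. ATF6 measured 63.8 and 60.3 CPM in shNC and 58.6 and 50.2 CPM in shTPX2. The groups of each sensor were separated in CPM, by little in EIF2AK3 and ERN1, and in TPM only those of ERN1 were, with EIF2AK3 higher and ERN1 and ATF6 lower in shTPX2. Log2 fold changes were 0.22 (SE 0.20) for EIF2AK3, −0.31 (SE 0.24) for ERN1 and −0.19 (SE 0.17) for ATF6, and the adjusted p of edgeR's quasi-likelihood test, Benjamini-Hochberg adjusted, was 0.804, 0.780 and 0.802.

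Of the chaperones, HSPA5, which encodes BiP, measured 430 CPM in shNC 1, 444 CPM in shNC 2, 532 CPM in shTPX2 1 and 479 CPM in shTPX2 2. The groups did not overlap in CPM but did in TPM, and the log2 fold change was 0.21 (SE 0.17, 95% CI −0.21 to 0.63, adjusted p = 0.791 by edgeR's quasi-likelihood test, Benjamini-Hochberg adjusted). HSP90B1, the ER paralog of HSP90, measured 505, 719, 562 and 589 CPM in shNC 1, shNC 2, shTPX2 1 and shTPX2 2. Here the shNC libraries enclosed both shTPX2 libraries. The lectin chaperones were CALR, with 763, 1166, 1003 and 1244 CPM in the same order, and CANX, which kept within 717 to 801 CPM. The co-chaperone DNAJB9 lay between 11.9 and 16.7 CPM and DNAJC3 between 52.8 and 58.9 CPM. HYOU1, a nucleotide exchange factor for BiP, ranged from 144 to 177 CPM. SDF2L1, a small BiP-associated protein, measured 11.3, 17.4, 15.9 and 22.5 CPM in shNC 1, shNC 2, shTPX2 1 and shTPX2 2. Its groups overlapped, with a log2 fold change of 0.42 (SE 0.30, adjusted p = 0.773 by edgeR).

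The disulfide isomerases differed from each other. PDIA6 measured 277 and 346 CPM in shNC and 249 and 260 CPM in shTPX2, so that both shTPX2 libraries were lower (log2 fold change −0.29, SE 0.19, adjusted p = 0.738 by edgeR's quasi-likelihood test, Benjamini-Hochberg adjusted). PDIA4 measured 334, 560, 476 and 515 CPM in shNC 1, shNC 2, shTPX2 1 and shTPX2 2, with both shTPX2 libraries between the shNC libraries. MANF, a secreted protein released under ER stress, was arranged in the same way, at 26.9, 50.1, 38.7 and 45.1 CPM. CRELD2, a further ER-resident stress protein, measured 25.2 and 33.97 CPM in shNC and 32.3 and 44.6 CPM in shTPX2 (log2 fold change 0.38, SE 0.24).

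In ER-associated degradation, HERPUD1, a scaffold of the retrotranslocation complex, measured 70.9 CPM in shNC 1, 43.9 CPM in shNC 2, 60.1 CPM in shTPX2 1 and 98.5 CPM in shTPX2 2. The highest and the lowest library were both numbered 2, and the log2 fold change of 0.47 (SE 0.32, 95% CI −0.30 to 1.23, adjusted p = 0.755 by edgeR's quasi-likelihood test, Benjamini-Hochberg adjusted) was 0.07 without shTPX2 2. SEL1L, the adaptor of the ubiquitin ligase HRD1, measured 60.8 and 60.6 CPM in shNC and 58.7 and 47.2 CPM in shTPX2 (log2 fold change −0.20, SE 0.18). EDEM1, which extracts misfolded glycoproteins from the folding cycle, overlapped between groups at 66.8 to 102 CPM.

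Within the groups the ER branch was arranged unlike the ATF4 branch. Of its 19 genes, 5 (26.3%) were higher in library 1 in both groups, a share near the 29.2% of all tested genes, and 10 (52.6%) were higher in library 2 in both, compared to 27.7% of all tested genes. Among the 12 chaperones, disulfide isomerases and resident proteins, 9 were higher in library 2 in both groups and 1, CANX, in library 1. Their median difference of library 1 minus library 2 was −0.38 in shNC and −0.10 in shTPX2. PDIA4, MANF, CALR and SDF2L1 differed most in shNC. With library size as the only normalisation the 5 genes higher in library 1 became 3. The median over the branch of log2 CPM, centred on the mean of each gene, was −0.14, 0.08, −0.02 and 0.04 in shNC 1, shNC 2, shTPX2 1 and shTPX2 2, compared to 0.30, −0.56, 0.51 and −0.29 in the ATF4 branch.

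Per transcript length, on the TPM scale, the members covered a wide range of levels. CALR had the highest mean level over the 4 libraries (838 to 1315 TPM), followed by ATF4 (578 to 1144 TPM) and CEBPB (518 to 771 TPM), each range overlapping the next. ATF3 was lowest at 0.690 to 2.43 TPM, below ERN1 at 3.28 to 5.49 TPM. CHAC1 had the widest range relative to its level, with a highest value 7.68 times the lowest. CANX, by contrast, varied by a factor of 1.02 between 349 and 358 TPM.

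Genes around the 2 branches were taken from lists written from general knowledge. The list for the input of the integrated stress response held 17 genes for eIF2, its exchange factor eIF2B, its kinases and regulators. It also held ATF5, which is not part of the input. Of the 17 genes, 10 (58.8%) had a higher and 7 a lower group mean, against 48.9% higher over all tested genes, with a median log2 fold change of 0.115. EIF2B2, ATF5 and EIF2S1 met the criteria of the study as higher and 0 genes as lower (14.2% of all tested genes met them in either direction). ATF5, a transcription factor translated in the same way as ATF4, measured 73.0, 19.3, 92.2 and 79.4 CPM in shNC 1, shNC 2, shTPX2 1 and shTPX2 2. Its log2 fold change of 0.90 (SE 0.55) rested on shNC 2 and was 0.225 without it. EIF2B2, a subunit of eIF2B, and EIF2S1, the subunit of eIF2 that is phosphorylated, had log2 fold changes of 0.37 (SE 0.17) and 0.35 (SE 0.16). Leaving out shNC 1, shNC 2, shTPX2 1 or shTPX2 2 left 2, 0, 1 and 1 genes called higher.

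A list of 29 other ATF4 targets was evenly split, with 14 genes higher, 15 lower and a median log2 fold change of −0.01. GDF15, a stress cytokine, measured 141 and 96.5 CPM in shNC and 175 and 217 CPM in shTPX2 (log2 fold change 0.72, SE 0.24). PYCR1, which makes proline, measured 63.1 and 46.3 CPM in shNC and 101 and 76.0 CPM in shTPX2 (0.69, SE 0.23). Both met the criteria of the study, as did CBS, of the transsulfuration pathway, at 0.42 (SE 0.22). Higher at these criteria were 6.24% of all tested genes, and lower 7.99%. Lower in this list were KLHL24 (−0.65, SE 0.28) and FAM129A, the older symbol of NIBAN1. FAM129A measured 2.66 and 2.93 CPM in shNC and 0.427 and 0.241 CPM in shTPX2, with a log2 fold change of −3.04 (SE 0.49). Its adjusted p was 0.423 by edgeR's quasi-likelihood test, Benjamini-Hochberg adjusted, and 0.00859 by DESeq2. Both shTPX2 values lay near the detection limit, so the size of this fold change is uncertain. The gene was left out when at least 10 counts were required in every library. Without shNC 1 there were 12 genes called higher and 4 lower, without shTPX2 1 there were 1 and 4, without shTPX2 2 there were 6 and 3, and without shNC 2 there were 3 and 1. Of the 29 genes, 16 (55.2%) were higher in library 1 than in library 2 in both groups, compared to 29.2% of all tested genes, and the cystine and neutral amino acid transporters SLC7A11 and SLC1A4 were at least 2-fold higher.

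The cytosolic tRNA synthetases, which charge tRNAs with amino acids, numbered 20, and 19 of them had a higher group mean in shTPX2, with a median log2 fold change of 0.24. FARSA (0.51, SE 0.16) and HARS (0.43, SE 0.18) met the criteria of the study as higher, compared to 6.24% of all tested genes. The groups did not overlap for 6 of the 20, while this held for 39.6% of all tested genes. Like the ATF4 branch, 16 of them (80.0%) were higher in library 1 in both groups, and the number called higher was 12 without shNC 1, 1 without shNC 2, 2 without shTPX2 1 and 5 without shTPX2 2. Over all tested genes, 29.2% were higher in library 1 in both groups. AARS, the older symbol of AARS1, stands in this list and among the other ATF4 targets.

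Of 75 further genes of ER folding, translocation and degradation, 74 were tested, with a median log2 fold change of 0.075. The group mean was higher for 49 (66.2%) and lower for 25, against 48.9% higher over all tested genes. Of the 74, 10 met the criteria as higher and 2 as lower, 12 in all, and 14.2% of all tested genes did so. CREB3L2, a membrane-bound factor of the ATF6 family, measured 34.9 and 44.5 CPM in shNC and 75.9 and 76.6 CPM in shTPX2. Its groups were far apart, with a log2 fold change of 0.94 (SE 0.18), an adjusted p of 0.439 by edgeR's quasi-likelihood test, Benjamini-Hochberg adjusted, and an adjusted p of 0.0133 by DESeq2. The others named by the smallest p were SRPRB (0.50), of the signal recognition particle receptor, UFD1 (0.55), a cofactor of the p97 segregase, SEC61G (0.46) and SEC61A1 (0.46), subunits of the translocon, and, as lower, the ubiquitin-conjugating enzyme UBE2J1 (−0.48). The number called higher was 6 without either shNC library and 3 without either shTPX2 library, and the number called lower was 7 without shNC 1, 5 without shTPX2 1 and 1 without shNC 2 or shTPX2 2. As in the ER branch, more of these genes were higher in library 2 in both groups (31, 41.9%) than in library 1 in both (12, 16.2%), compared to 27.7% and 29.2% of all tested genes.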

How the data were processed

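The study's methods give SOAPnuke for read cleaning, HISAT2/Bowtie2 for alignment and RSEM or StringTie for quantification, while the submitters' processing notes name HISAT2, featureCounts, DESeq2 and GRCh38. The authors deposited expected counts per gene, not normalised for depth, of which 42.15% to 44.58% were not whole numbers. The deposited TPM and FPKM values are scaled by length and depth. TPM served for levels and FPKM was not used. Deposited group averages were not used, since they equalled the mean of the 2 libraries to within 0.02 TPM for only 11.82% (shNC) and 10.35% (shTPX2) of genes.

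Expected counts were rounded. In R 4.3.3, genes were filtered with filterByExpr, normalised by TMM and compared by edgeR 4.0.16 (quasi-likelihood test, Benjamini-Hochberg adjustment over 14048 genes). Calls used limma 3.58.1 (voom) at the study's criteria. Alternatives were DESeq2 1.42.0, other normalisations and filters, an adjusted p of at most 0.1, the library number as a block, and each library left out. A permutation test over 2 against 2 libraries cannot reach 0.05. Intervals combine the spread of each gene with a trend over all genes (common dispersion 0.0485), so SEs differed between genes, for example 0.157 for DNAJC3 and 0.81 for ASNS.

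The members and lists were chosen with earlier results of these data known. By a rule, values by library with a fold change and SE are given for the regulators (except CEBPG), the sensors, HSPA5 and ASNS. The same holds for members called, members with an unadjusted edgeR p under 0.05, and the 3 largest and 3 smallest fold changes per branch. An adjusted p is printed for most of these. For up to 6 called genes of each wider list, by smallest limma p, fold changes are given, with values by library for some. Other members are given by examples and ranges. CPM replaced TPM as the scale for values by library after the values had been seen, because fold changes are on that scale. Overlap between groups differed between CPM and TPM for 6 members (PPP1R15A, EIF2AK3, ATF6, HSPA5, CANX and DNAJC3). Lists used older symbols where the table does. Protein sequences were not analysed here.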

Additional observations from a re-analysis of the deposited data

How the results depend on the processing

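At an adjusted p under 0.05, 0 members passed under every edgeR and DESeq2 alternative run. The number of members called higher in the ATF4 branch, 1, became 0 with library size only, no filter on low counts, DESeq2, the edgeR test at the study's thresholds, quantile normalisation or an adjusted p, and ran from 0 to 9 with 1 library left out. Called lower there were 0 to 2. In the ER branch the 1 member called higher became 0 with an adjusted p and ran from 0 to 6 with 1 library left out, and called lower were 0 to 1. Leaving out 1 library moved the median log2 fold change from −0.288 to 0.726 in the ATF4 branch and from −0.051 to 0.181 in the ER branch. In such fits the lone library is assumed to vary like the others.

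The library numbers are shared by both groups, but with 2 pairs and a correlation of same-numbered deviations of 0.182 they were not taken to pair the libraries. In log2 CPM over all tested genes, however, shNC 1 and shTPX2 1 correlated at 0.983. The shNC libraries correlated with each other at 0.972 and the shTPX2 libraries at 0.979. Whether equal numbers share a culture or day was not tested, and the labels do not say. With the replicate block the ATF4 branch had 4 members called higher and 1 lower, the ER branch had 3 higher, the other ATF4 targets had 7 higher and the tRNA synthetases 5 higher. Calls also rose over all tested genes, to 1084 higher and 1363 lower, compared to 876 and 1122 without the block. The median log2 fold change with the block was 0.284 in the ATF4 branch and 0.157 in the ER branch.

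With library size only, called higher were 1 gene of the input list, 1 tRNA synthetase, 6 of the other ER genes and 578 of all genes, and TRIB3 became −0.015. After the values had been seen, library size was also applied to the within-group counts, where 3 ER branch members were higher in library 1 in both groups. Quantile normalisation gave 6 other ER genes higher, and at least 10 counts in every library gave 1 other ATF4 target lower. With an adjusted p the calls were 0 in every list and 0 higher and 1 lower over all genes. With 1 library left out, called higher were 0 to 2 and lower 0 to 1 of the input list, 1 to 12 and 1 to 4 of the other ATF4 targets, 1 to 12 tRNA synthetases, 3 to 6 and 1 to 7 of the other ER genes, and 507 to 1487 and 593 to 1858 of all genes.

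Directions of single members that turned with 1 library left out ran between these log2 fold changes. They were ATF4 −0.21 to 0.811, ATF3 −1.674 to 0.223, DDIT3 −0.158 to 0.108, CEBPG −0.281 to 0.511, TRIB3 −0.599 to 1.167, CHAC1 −0.662 to 2.214, SESN2 −0.092 to 0.427, DDIT4 −1.313 to 0.676, ASNS −1.114 to 1.649, PSAT1 −0.51 to 1.326, PHGDH −0.5 to 0.533, PSPH −0.047 to 0.608. They also were SHMT2 −0.108 to 0.726, MTHFD2 −0.474 to 0.661, SLC3A2 −0.075 to 0.925, SLC7A5 −0.42 to 1.711, SLC7A1 −0.331 to 0.843, HSP90B1 −0.32 to 0.181, HYOU1 −0.0 to 0.257, CALR −0.051 to 0.55, DNAJB9 −0.313 to 0.17, PDIA4 −0.176 to 0.56, MANF −0.255 to 0.631 and EDEM1 −0.154 to 0.466.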

Other observations

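Over all tested genes, 44 were at least 2-fold higher in library 1 than in library 2 in both groups, and 98 were at least 2-fold higher in library 2 in both. The genes named here were chosen after their values had been seen, and the values have no test. The 44 hold 5 ATF4 branch members and, outside every list used here, 37 genes. INHBE, a subunit of the activin family that is a known target of ATF4, measured 4.27 CPM in shNC 1 and 0.315 CPM in shNC 2, and 7.26 CPM in shTPX2 1 and 0.337 CPM in shTPX2 2. Its values in the libraries numbered 2 lay near the detection limit, so the size of these differences is uncertain. FGF21, a stress hormone and a further known ATF4 target, was near the detection limit at 1.06, 0.405, 2.37 and 0.0482 CPM in shNC 1, shNC 2, shTPX2 1 and shTPX2 2.

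Values of 4 more of the 44 genes follow, picked by hand and not as a count of any gene group. FOS measured 308 and 73.5 CPM in shNC and 382 and 171 CPM in shTPX2. DUSP1, a phosphatase of MAP kinases, measured 47.6 and 8.78 CPM in shNC and 50.8 and 10.9 CPM in shTPX2. HBEGF, a ligand of EGFR, measured 26.9 and 10.4 CPM in shNC and 66.2 and 14.4 CPM in shTPX2. CTGF, a target of YAP, measured 36.9 and 12.4 CPM in shNC and 20.2 and 4.29 CPM in shTPX2. That library 1 is the higher one in these genes follows from how the 44 were chosen.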
